A study of Mus musculus with 32 samples.

Results

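The miRNA profile of day 26 cardiomyocytes was set against that of the undifferentiated murine embryonic stem (ES) cells from which they were derived. The arrays were chosen by their time labels, day 26 and day 0, and numbered 16 of the 32 arrays of the series. They came from 4 RNA samples of 8 in all, since each RNA was hybridized on 2 platforms and each platform was normalized in 2 ways. In both groups the cells were the ES-D3 clone aPIG 44, which carries the alpha-MHC-Pac-IRES-EGFP vector, a puromycin resistance gene and a green fluorescent reporter driven by the cardiac alpha-myosin heavy chain promoter. Day 26 cells (a and b) had been formed into embryoid bodies, cultured in spinner flasks, selected with puromycin from day 9, dissociated at day 12 and seeded on fibronectin as Cor.At cardiomyocytes. Day 0 cells (a and b) were grown on mouse embryonic fibroblasts with LIF and kept for 48 h on gelatin before RNA extraction. The study also sampled day 12 and day 19. The model is limited to 1 clone, to cells that survive selection through 1 promoter, and to 2 cultures a day. The text of the day 26 labels gives 21 days of spinner culture and RNA extraction 6 h after seeding, which differs from the later harvest after plating that the study's methods describe, so the time spent on the dish is uncertain. Total RNA of a culture was compared, so fewer cells of a type and less RNA per cell cannot be told apart.

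A miRNA is a short RNA that guides the silencing complex to messenger RNAs, mainly through its seed, the bases near its 5′ end that pair with the target. In mouse ES cells the miR-290 to miR-295 cluster dominates and its AAGUGC-type seed favours passage into S phase. The let-7 family is held back there by LIN28, which blocks the processing of its precursors, and its rise on differentiation represses pluripotency factors. Heart muscle is known for miR-1 and miR-133a, which are made from shared transcripts, and for miR-208a, miR-208b and miR-499, which lie in introns of myosin heavy chain genes.

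Mature sequences from RefSeq (build GRCm38.p6) are shown for the miRNAs on which the comparison turns, written 5′ to 3′ with the seed, bases 2 to 8, in capitals. Of the 609 miRNAs tested on the Affymetrix array, 273 were matched to a RefSeq sequence. The first set is shown because miRNAs with 1 seed had different calls at day 26 on Affymetrix: miR-291a-3p, miR-294 and miR-295 of the ES cell cluster fell, miR-302b did not pass the test, and miR-20b and miR-106a carry the same core shifted by 1 base and fell as well. The difference between miR-302b and the others was not tested, and on Febit no carrier of the AAGUGCU seed was called, with log2 fold changes of -1.59 for miR-302b and -1.83 for miR-291a-3p.
miR-291a-3p: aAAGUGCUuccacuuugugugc
miR-294: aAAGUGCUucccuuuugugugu
miR-295: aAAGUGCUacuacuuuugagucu
miR-302b: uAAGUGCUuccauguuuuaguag
miR-20b: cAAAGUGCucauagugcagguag
miR-106a: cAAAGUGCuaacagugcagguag
The second set, from the other arm of the hairpins of the ES cell cluster, held miR-290-5p and miR-292-5p, which were called lower in all 4 data sets, and it includes miR-293*, which has the same seed and did not pass the test.
miR-290-5p: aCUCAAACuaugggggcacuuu
miR-292-5p: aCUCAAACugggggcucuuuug
miR-293*: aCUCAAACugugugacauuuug
The third set is shown because let-7 members differ from let-7a by only 1 to 4 of 22 bases, so that a probe may not separate them.
let-7a: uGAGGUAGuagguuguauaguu
let-7b: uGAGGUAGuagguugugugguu
let-7f: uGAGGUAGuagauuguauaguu
let-7i: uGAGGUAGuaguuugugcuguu
The fourth set holds the myosin-encoded miRNAs, of which miR-208a gave different answers on the 2 platforms. Its sequence differs from that of miR-208b at 3 of 22 bases, and both lie on the minus strand of chromosome 14, at chr14:54949072-54949093 (miR-208a) and chr14:54975710-54975731 (miR-208b).
miR-208a: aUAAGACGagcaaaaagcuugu
miR-208b: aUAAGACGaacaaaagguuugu
miR-499: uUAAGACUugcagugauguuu
The fifth set is shown because miR-322, from an X-linked cluster that rose, has the seed of miR-15b and miR-16, which moved less or in a direction that depended on the normalization.
miR-322: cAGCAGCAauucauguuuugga
miR-15b: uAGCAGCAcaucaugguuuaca
miR-16: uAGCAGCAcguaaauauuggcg

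Values are those the authors normalized with variance stabilization (VSN), on a generalized log2 scale that is close to log2 for bright miRNAs and nearly linear near the background. Where a group lay near or under the array median, a fold change is limited by the background and cannot be ranked against that of another miRNA. The same arrays normalized by RMA (Affymetrix) or without VSN (Febit) served as checks. A miRNA was called where the limma test of day 26 against day 0 gave a Benjamini-Hochberg adjusted p under 0.05 over all miRNAs of its array. The duplicate arrays correlated across miRNAs with Pearson r = 0.97 at day 26 and 0.94 at day 0 on Affymetrix VSN, but with 0.87 at day 26 and 0.52 at day 0 on Febit VSN. The median SE of a log2 fold change with VSN was 0.51 on the Affymetrix and 0.72 on the Febit array. The raw Febit array of day 26 b had a median intensity of 228, against 928 to 992 on the other 7 Febit arrays, and its part in the Febit results was not tested beyond leaving it out.

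On Affymetrix VSN, 191 of 609 miRNAs were called at day 26. Of these, 141 were higher than in ES cells (23.2% of those tested) and 50 were lower (8.21%). RMA values of the same hybridizations gave 195 calls, with 95 higher (15.6%) and 100 lower (16.4%), so the share of higher calls was 73.8% with VSN, 48.7% with RMA and 49.7% after quantile normalization of the VSN arrays. On Febit VSN, 54 of 710 miRNAs were called, 43 higher (6.06%) and 11 lower (1.55%). Febit values without VSN gave 25 higher (3.52%) and 16 lower (2.25%), or 35 and 19 with 2 arrays of other days, titled day 12 a and day 19 b, exchanged. The share of higher calls on Febit was 79.6% with VSN and 61.0% without. The percentages of tested miRNAs called higher or lower are the background for the counts of list members below. The Febit count depended on each day 26 array: 15 calls were left without day 26 a and 10 without day 26 b. The 10 that stayed called both without day 26 a and without day 26 b were miR-1, miR-133a, miR-143, miR-145, miR-125b-5p, miR-30b, miR-290-5p, miR-291a-5p, miR-292-3p and miR-293.

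The striated muscle miRNAs rose at day 26. On Affymetrix VSN 7 of the 8 members were called higher, with a list median of 3.89 on the log2 fold change scale against 0.24 over all 609 miRNAs, and on Febit VSN 5 of 8, with a median of 2.85 against -0.07. RMA called the same number, 7 of 8, with a median of 1.71, and Febit without VSN called 3. miR-1, the most abundant miRNA of heart muscle, had VSN values of 11.52 and 11.88 in day 26 cells, against 2.84 and 1.10 in ES cells on Affymetrix. On Febit its values were 11.55 and 12.10 at day 26, against 4.23 and 5.03 at day 0. The groups did not overlap on either platform, with log2 fold changes of 9.73 ± 0.59 (SE, n = 2 arrays each) and adjusted p = 1.7e-07 on Affymetrix, and of 7.20 ± 0.63 and adjusted p = 0.00028 on Febit. In the raw Febit intensities miR-1 stood at 5.28 and 15.2 times the array median in day 26 cells, against 0.904 and 0.906 times in ES cells, so its ES cell signal was below that of the median miRNA. The medians were 992 for day 26 a and 228 for day 26 b, so the higher ratio of b is not a higher raw signal.

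miR-133a, its transcript partner, had Affymetrix VSN values of 10.89 and 10.75 at day 26, against 2.67 and 1.78 at day 0, a log2 fold change of 8.59 ± 0.52. The star arm of the same hairpin, miR-133a*, stood at 6.90 and 6.41 at day 26, against 1.85 and 1.56 at day 0 (log2 fold change 4.95 ± 0.47, adjusted p = 3.9e-06). miR-133b, which shares a transcript with miR-206 in skeletal muscle, was at 10.15 and 10.03 in day 26 cells, against 1.91 and 2.26 in ES cells, a log2 fold change of 8.01 ± 0.49. miR-206 itself was at 4.99 and 3.63 at day 26 against 1.84 and 1.10 at day 0 (2.84 ± 0.56, adjusted p = 0.0014). On Febit VSN miR-206 was not called (2.45). This differs from the study, which saw no increase of miR-206 and describes it as a skeletal muscle miRNA similar in sequence to miR-1. Whether the probes separate miR-206 from miR-1, or miR-133b from the closely related miR-133a, was not tested. On Febit the log2 fold change of miR-133b was 3.02 ± 0.62, that of miR-133a 5.23 ± 0.63 and that of miR-133a* 1.33 ± 0.60 with adjusted p = 0.27.

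Of the 3 myosin-encoded miRNAs, miR-208a differed between the platforms. The study also measured miR-208a by RT-qPCR in the same RNA and reports an outcome nearer to Febit, which showed a rise. miR-208a lies in an intron of Myh6, the gene whose promoter drives the selection cassette. On Febit miR-208a had VSN values of 11.0 and 9.98 at day 26, against 7.01 and 4.95 at day 0, a log2 fold change of 4.52 ± 0.81 with adjusted p = 0.0082, and the call was lost without day 26 a (4.01) or without day 26 b (5.03). On Affymetrix its values were 2.43 and 1.67 in day 26 cells, against 1.37 and 2.17 in ES cells, so the groups overlapped and the log2 fold change of 0.28 ± 0.48 missed the threshold (adjusted p = 0.72). The difference between platforms was itself called (Affymetrix minus Febit -4.24 ± 0.96, adjusted p = 0.015), but not after scaling each platform's fold changes to SD 1 (adjusted p = 0.092) or without day 26 a, day 26 b or day 0 b. Raw Febit intensities of miR-208a were 3.88 and 4.11 times the array median at day 26, against 1.01 and 0.901 times at day 0. The medians of the day 26 arrays were 992 and 228, so similar ratios there stand for different raw intensities. miR-208b, of slow myosin Myh7, stood at 3.16 and 3.18 at day 26 against 1.67 and 1.03 at day 0 on Affymetrix (1.82 ± 0.47, adjusted p = 0.0092), and rose by 2.67 ± 0.70 on Febit (adjusted p = 0.046). The Affymetrix call was lost without day 26 a or day 0 b, and the Febit call without day 26 a, day 26 b or day 0 b and with Febit values without VSN (0.98). miR-499, of Myh7b, stood at 4.04 and 3.76 at day 26 against 1.47 and 1.14 at day 0 on Affymetrix (2.59 ± 0.46, adjusted p = 0.00067), while its Febit log2 fold change of 2.06 ± 0.62 had an adjusted p of 0.081. Its Febit values, 8.51 and 8.70 at day 26 against 6.50 and 6.60 at day 0, did not overlap. The test of the difference between platforms did not call miR-208b (-0.86 ± 0.83, adjusted p = 0.67) or miR-499 (0.53 ± 0.88, adjusted p = 0.80).

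miR-143 and miR-145, which are best known from smooth muscle and are expressed early in the developing heart, rose in all 4 data sets. miR-143 had Affymetrix VSN values of 11.55 and 11.70 in day 26 cells, against 5.03 and 4.40 in ES cells (log2 fold change 6.91 ± 0.46, adjusted p = 2.5e-07). On Febit its log2 fold change of 7.41 ± 0.72 came with raw intensities of 10138 and 10294.5 at day 26, against 948 and 840 at day 0, where the array medians were 960 and 932. miR-145 was at 11.23 and 11.45 at day 26 against 6.18 and 6.52 at day 0 on Affymetrix, a log2 fold change of 5.00 ± 0.45, and rose by 5.83 ± 0.77 on Febit. The day 26 and day 0 arrays were apart for both miRNAs on both platforms.

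**Figure D1:**
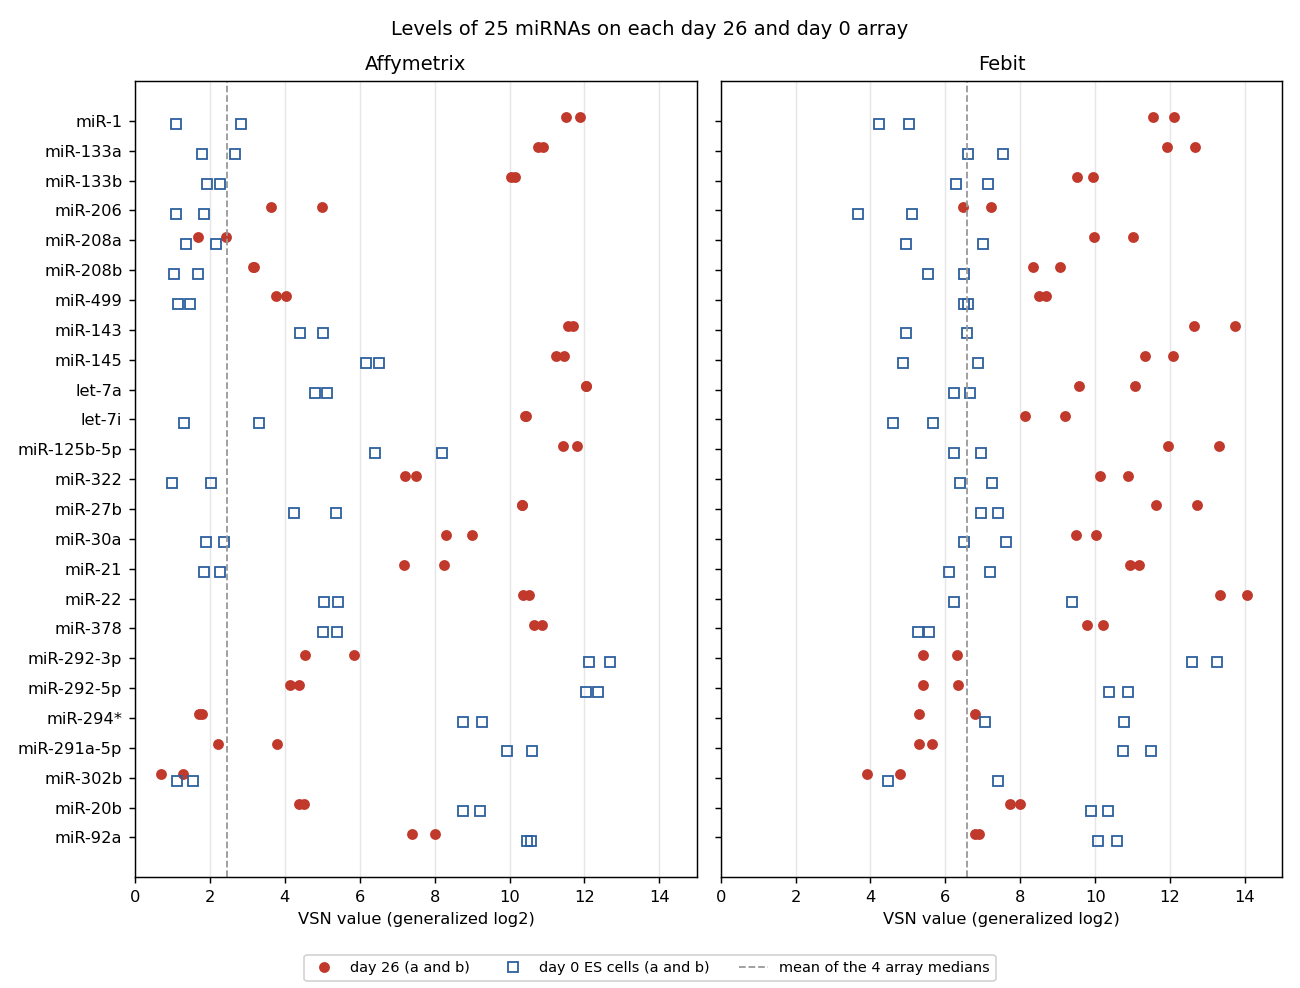
VSN values (generalized log2) of 25 miRNAs on the Affymetrix (left) and Febit (right) arrays, with filled circles for day 26 a and b, open squares for day 0 a and b, and a dashed line at the mean of the 4 array medians. miR-1 lies at 11.52 and 11.88 at day 26 against 2.84 and 1.10 at day 0 on Affymetrix, and miR-208a is apart on Febit only.

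The miR-290 to miR-295 cluster, whose hairpins matched here span chr7:3218626-3220841 on the plus strand, fell. On Affymetrix VSN 12 of its 14 measured miRNAs were called lower and none higher, with a median log2 fold change of -5.86 against 0.24 over all miRNAs. RMA also called 12 lower, with a median of -6.05. Febit VSN called 6 lower with a median of -2.88, and Febit without VSN 5. miR-292-3p, a principal product of the cluster, had values of 4.53 and 5.85 in day 26 cells, against 12.12 and 12.68 in ES cells on Affymetrix, and of 5.39 and 6.32 against 12.58 and 13.25 on Febit. The log2 fold changes were -7.21 ± 0.70 on Affymetrix and -7.06 ± 0.66 on Febit. Raw Febit intensities of miR-292-3p were 0.891 and 1.0 times the array median at day 26, against 5.26 and 12.4 times at day 0, so its day 26 signal was at or below that of the median miRNA.

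The largest measured decrease on Affymetrix was that of miR-292-5p, with 4.15 and 4.38 at day 26 against 12.05 and 12.37 at day 0 (log2 fold change -7.95 ± 0.77, adjusted p = 3.9e-06). miR-291a-5p was at 2.21 and 3.80 at day 26 against 9.92 and 10.59 at day 0 (-7.25 ± 0.70), and miR-290-5p at 4.79 and 5.68 against 12.35 and 12.59 (-7.23 ± 0.75). Together with miR-292-3p and miR-293 (-5.28 ± 0.63), they were called lower in all 4 data sets. The guide strands with the AAGUGCU seed shown above fell on Affymetrix, miR-291a-3p by 4.65 on the log2 scale, miR-294 by 4.29 and miR-295 by 3.98. None of these 3 was called on Febit, where the log2 fold changes were -1.83 for miR-291a-3p, -3.59 for miR-294 and -2.67 for miR-295. Their Affymetrix day 26 values lay between 0.90 and 1.87, under the array medians of 2.60 and 2.58, and their ES cell values between 5.12 and 6.74, so that background limited the size of these changes. The star strands fell as well: miR-294* was at 1.70 and 1.79 at day 26 against 8.76 and 9.27 at day 0 (-7.27 ± 0.47), and miR-295* at 2.67 and 2.58 against 8.62 and 9.53 (-6.45 ± 0.65). On Febit neither star strand was called, with log2 fold changes of -2.87 ± 1.07 for miR-294* and -1.40 ± 0.66 for miR-295*. For miR-295* the study reports a decrease during differentiation by RT-qPCR too, as on Affymetrix. The members not called on Affymetrix were miR-293* (0.04 ± 0.45) and miR-291b-3p, both under the array median on every Affymetrix array.

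The miR-302 to miR-367 cluster, which is typical of the epiblast and holds miR-302b and miR-302d with the AAGUGCU seed, had a mean close to the array median in both groups. Its mean Affymetrix VSN value was 2.07 and 2.35 on the day 26 arrays, against 2.38 and 1.88 on the day 0 arrays. Its median log2 fold change was 0.05, with no member called lower. A single member was called higher, miR-302d, with 5.88 and 5.87 at day 26 against 4.66 and 2.36 at day 0 (2.36 ± 0.67, adjusted p = 0.016), and that call was lost without day 26 a, day 26 b or day 0 b and not made with RMA (0.65, adjusted p = 0.57) or on Febit (1.31 ± 1.06, adjusted p = 0.61). miR-302b, whose seed equals that of miR-294, had 0.70 and 1.27 at day 26 against 1.56 and 1.11 at day 0.

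The miR-17 to miR-92a cluster and its paralogues, which are driven by MYC and promote proliferation, were lower at day 26. Of 21 measured miRNAs, Affymetrix VSN called 10 lower and none higher (median log2 fold change -1.35), RMA 17 lower (median -2.25), Febit VSN 3 lower (median -1.15) and Febit without VSN 5. The shares called lower over all miRNAs were 8.21%, 16.4%, 1.55% and 2.25%, in that order. The hairpins of the X-linked paralogue matched here span chrX:52741693-52742567. All 5 miRNAs matched to these hairpins were called lower on Affymetrix with VSN and with RMA. miR-20b was at 4.39 and 4.50 in day 26 cells, against 9.22 and 8.77 in ES cells (-4.55 ± 0.46, adjusted p = 6e-06). miR-106a was at 5.44 and 5.68 at day 26 against 8.47 and 8.27 at day 0 (-2.81 ± 0.45), and miR-363 at 3.15 and 1.57 against 4.92 and 5.20 (-2.71 ± 0.57). miR-92a, which is made from both the chromosome 14 and the X-linked cluster, was at 7.39 and 8.02 at day 26 against 10.47 and 10.57 at day 0 (-2.81 ± 0.51), and fell by 3.49 on Febit. Of the chromosome 14 cluster, miR-17 fell on Affymetrix by 1.58 with VSN (adjusted p = 0.015) and by 3.58 with RMA. There miR-20a was not called with VSN (-0.73, adjusted p = 0.23) but was called lower with RMA (-2.62). On Febit both miR-17 (-2.46) and miR-20a (-2.01) were called lower without VSN, and neither with VSN (-2.16 and -1.87). miR-17 and miR-106a differ at 1 of 23 bases, and miR-17 lost its Affymetrix VSN call when any of the 4 arrays was left out. The star strands called lower were miR-93* (-1.85 ± 0.49), miR-18a* (-1.62 ± 0.45), miR-20b* (-1.60 ± 0.45) and miR-17* (-1.38 ± 0.43), none of them on Febit. miR-92b, from a paralogous hairpin of its own and named after its values were seen, differed between platforms, with 2.78 and 2.49 at day 26 against 4.98 and 5.48 at day 0 on Affymetrix (-2.59 ± 0.44) and a Febit log2 fold change of 0.87 ± 0.58 (difference -3.46 ± 0.83, adjusted p = 0.017). That difference was not called after scaling to SD 1 (adjusted p = 0.14), with the day 26 and day 0 samples only, or without day 26 a or day 26 b.

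The let-7 family rose as a whole. All 9 members on the array, miR-98 included, were called higher on Affymetrix with VSN (median log2 fold change 6.28) and with RMA (median 4.53). Febit VSN called 7 (median 3.88) and Febit without VSN 5. let-7a had Affymetrix values of 12.05 and 12.04 in day 26 cells, against 5.13 and 4.8 in ES cells (7.08 ± 0.44, adjusted p = 1.7e-07), and Febit values of 9.58 and 11.05 against 6.66 and 6.22 (3.88 ± 0.80, adjusted p = 0.013). let-7i was close to the array medians in ES cells on Affymetrix, with 10.45 and 10.40 at day 26 against 3.30 and 1.31 at day 0 (8.12 ± 0.67). let-7b varied more between the ES cell arrays, with 9.73 and 9.86 at day 26 against 6.22 and 3.86 at day 0 (4.76 ± 0.68), and was not called on Febit (2.23 ± 0.65, adjusted p = 0.071). let-7g was at 9.21 and 9.19 at day 26 against 2.22 and 1.46 at day 0 (7.35 ± 0.45) and let-7c at 11.47 and 11.51 against 6.97 and 5.84 (5.09 ± 0.50), with Febit log2 fold changes of 4.07 ± 0.72 and 4.97 ± 1.02. miR-98 was at 3.97 and 3.23 at day 26 against 0.30 and 1.87 at day 0 (2.51 ± 0.55), and had a Febit log2 fold change of -0.09 ± 0.68. Fold changes of single members are uncertain where cross-hybridization between near-identical sequences is possible.

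miR-99a, miR-99b, miR-100, miR-125a-5p and miR-125b-5p, whose genes lie beside let-7 genes, were all 5 called higher on Affymetrix VSN (median 4.31), 4 with RMA and 3 on Febit VSN. miR-125b-5p had Febit values of 11.95 and 13.31 at day 26 against 6.23 and 6.95 at day 0 (6.03 ± 0.80, adjusted p = 0.0014), and Affymetrix values of 11.43 and 11.80 against 8.21 and 6.41 (4.31 ± 0.58). miR-100 was at 7.64 and 8.25 at day 26 against 2.08 and 0.51 at day 0 on Affymetrix (6.65 ± 0.59). It differs from miR-99a (4.66 ± 0.57) at 1 of 22 bases, and neither was called on Febit, with adjusted p of 0.055 for miR-100 and 0.071 for miR-99a.

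The X-linked miR-322 to miR-503 cluster, whose members restrain the cell cycle and are active in muscle and heart progenitors, rose. Affymetrix VSN called 8 of 11 higher (median log2 fold change 4.31), RMA 7 and Febit VSN 5, but Febit without VSN none. miR-322 was at 7.49 and 7.20 in day 26 cells, against 0.98 and 2.04 in ES cells (5.83 ± 0.51), and its star strand miR-322* at 8.43 and 9.24 against 1.80 and 1.35 (7.26 ± 0.47). miR-351 stood at 11.08 and 10.86 at day 26 against 4.88 and 3.69 at day 0 (6.68 ± 0.50), and miR-503 at 9.29 and 9.08 against 3.37 and 3.50 (5.74 ± 0.44). On Febit these rose by 3.69 ± 0.68 (miR-322), 3.55 ± 0.68 (miR-322*), 2.82 ± 0.73 (miR-351) and 2.42 ± 0.63 (miR-503). miR-542-5p (5.44 ± 0.44), miR-450b-3p (4.31 ± 0.47), miR-503* (2.51 ± 0.44) and miR-450a-5p (2.03 ± 0.51) completed the calls on Affymetrix VSN, and none of these was called on Febit. Among miRNAs matched to a sequence, the other carriers of the miR-322 seed were miR-15a, miR-15b, miR-16 and miR-195. Their log2 fold changes were smaller, between -1.0 and 2.34. Of the 5 members of the miR-15, miR-16 and miR-195 list, miR-16 was called higher with VSN (9.55 and 9.34 at day 26 against 6.85 and 7.35 at day 0, 2.34 ± 0.43) and not with RMA (0.25, adjusted p = 0.32). miR-15b missed the threshold with VSN (0.58, adjusted p = 0.37) and was called lower with RMA (-1.24), and miR-497 was called lower with both (-1.87 with VSN and -0.83 with RMA).

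Several families that are widespread in differentiated tissues rose together. Of the clusters of miR-24, miR-23 and miR-27, the 5 miRNAs listed, star strands left out, were all called higher with VSN on both platforms. Their medians were 3.66 on Affymetrix and 4.02 on Febit, and 4 were called with RMA and 4 on Febit without VSN. Of the star strands, miR-24-2* (4.13), miR-24-1* (3.51) and miR-27b* (3.1) were called higher on Affymetrix VSN, and miR-27a* (1.26) was not. On Febit VSN no star strand was called, with log2 fold changes of 2.2, 0.72, -1.96 and -0.14 in that order. miR-27b was at 10.33 and 10.32 at day 26 against 4.24 and 5.36 at day 0 on Affymetrix (5.53 ± 0.48), and rose by 5.00 ± 0.72 on Febit. miR-24 was at 12.24 and 12.73 at day 26 against 8.79 and 8.85 at day 0 (3.66 ± 0.46). miR-23a and miR-23b rose by 2.61 ± 0.45 and 2.98 ± 0.44 on Affymetrix and by 4.02 ± 0.84 and 3.89 ± 0.92 on Febit, and miR-23a was the member not called with RMA (0.45, adjusted p = 0.17). miR-27a, which differs from miR-27b at 1 of 21 bases, rose by 4.15 ± 0.50 on Affymetrix and 3.61 ± 0.69 on Febit. The miR-30 family, abundant in heart muscle, had all 5 members called with VSN and with RMA on Affymetrix, and 4 on Febit with VSN. It is known from heart muscle for repressing connective tissue growth factor. Of its members miR-30a was at 8.99 and 8.30 at day 26 against 2.38 and 1.90 at day 0 (6.51 ± 0.52). miR-30b gave similar values on both platforms, 5.28 ± 0.57 on Affymetrix and 4.99 ± 0.66 on Febit. miR-30e, the member not called on Febit (1.58 ± 0.65), rose by 4.26 ± 0.51 on Affymetrix. Of the miR-29 family, which represses collagens, only miR-29a was called (7.67 and 7.49 at day 26 against 2.42 and 1.55 at day 0, 5.6 ± 0.47), while miR-29b (0.76, adjusted p = 0.30) and miR-29c (0.91, adjusted p = 0.21) missed the threshold. miR-26a rose by 3.94 ± 0.46 on Affymetrix and by 4.42 ± 0.67 on Febit, and miR-26b by 3.05 ± 0.48 on Affymetrix, while its Febit log2 fold change was 1.88 ± 0.93.

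miR-21, which is induced in many differentiating and stressed cells, was at 8.24 and 7.18 in day 26 cells, against 1.84 and 2.28 in ES cells on Affymetrix (5.65 ± 0.51, adjusted p = 2.1e-06), and at 10.94 and 11.17 against 7.19 and 6.10 on Febit (4.41 ± 0.64). miR-31 was called on Affymetrix VSN alone (2.07 ± 0.53). miR-22, enriched in striated muscle, had Febit values of 13.34 and 14.05 at day 26 against 6.23 and 9.38 at day 0 (5.89 ± 0.96, adjusted p = 0.0047). On Affymetrix miR-22 was at 10.52 and 10.36 against 5.04 and 5.43 (5.20 ± 0.43). miR-378, encoded in the metabolic regulator gene Ppargc1b, rose by 5.55 ± 0.46 on Affymetrix and 4.58 ± 0.86 on Febit. miR-210, which is induced by hypoxia, was at 9.86 and 9.97 at day 26 against 4.62 and 4.24 at day 0 on Affymetrix (5.48 ± 0.44), and rose by 3.13 ± 0.81 on Febit. miR-298 (2.75 ± 0.48) and miR-138 (2.32 ± 0.46) were called on Affymetrix VSN only. miR-715 was not called with VSN on either platform (-0.21 on Affymetrix and -1.95 on Febit), and was called lower on Febit without VSN (-2.21, adjusted p = 0.025).

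Grouping by seed gave 16 seeds that at least 3 measured miRNAs with a sequence shared. The median log2 fold change on Affymetrix VSN was 6.28 for the let-7 seed (9 of 9 called higher), and other seeds with every member called higher were that of miR-99 and miR-100 (4.66, 3 of 3), that of miR-125 and miR-351 (4.31, 3 of 3) and that shared by miR-148b, miR-148a and miR-152 (3.9, 3 of 3). miR-152 of that last group, picked after its values were seen, was at 8.97 and 9.05 at day 26 against 1.61 and 3.25 at day 0 (6.58 ± 0.54) and was called on Febit too (3.59, adjusted p = 0.014). At the other end, miR-290-5p and miR-292-5p fell and miR-293* with their seed did not pass the test, and the 6 carriers of the AAAGUGC seed had a median of -1.21 with 3 called lower with VSN, and of -3.16 with all 6 called lower with RMA. Within the AAGUGCU seed, miR-302d had a log2 fold change of 2.36 and miR-294 of -4.29, the first of them called with VSN on Affymetrix alone.

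**Figure D2:**
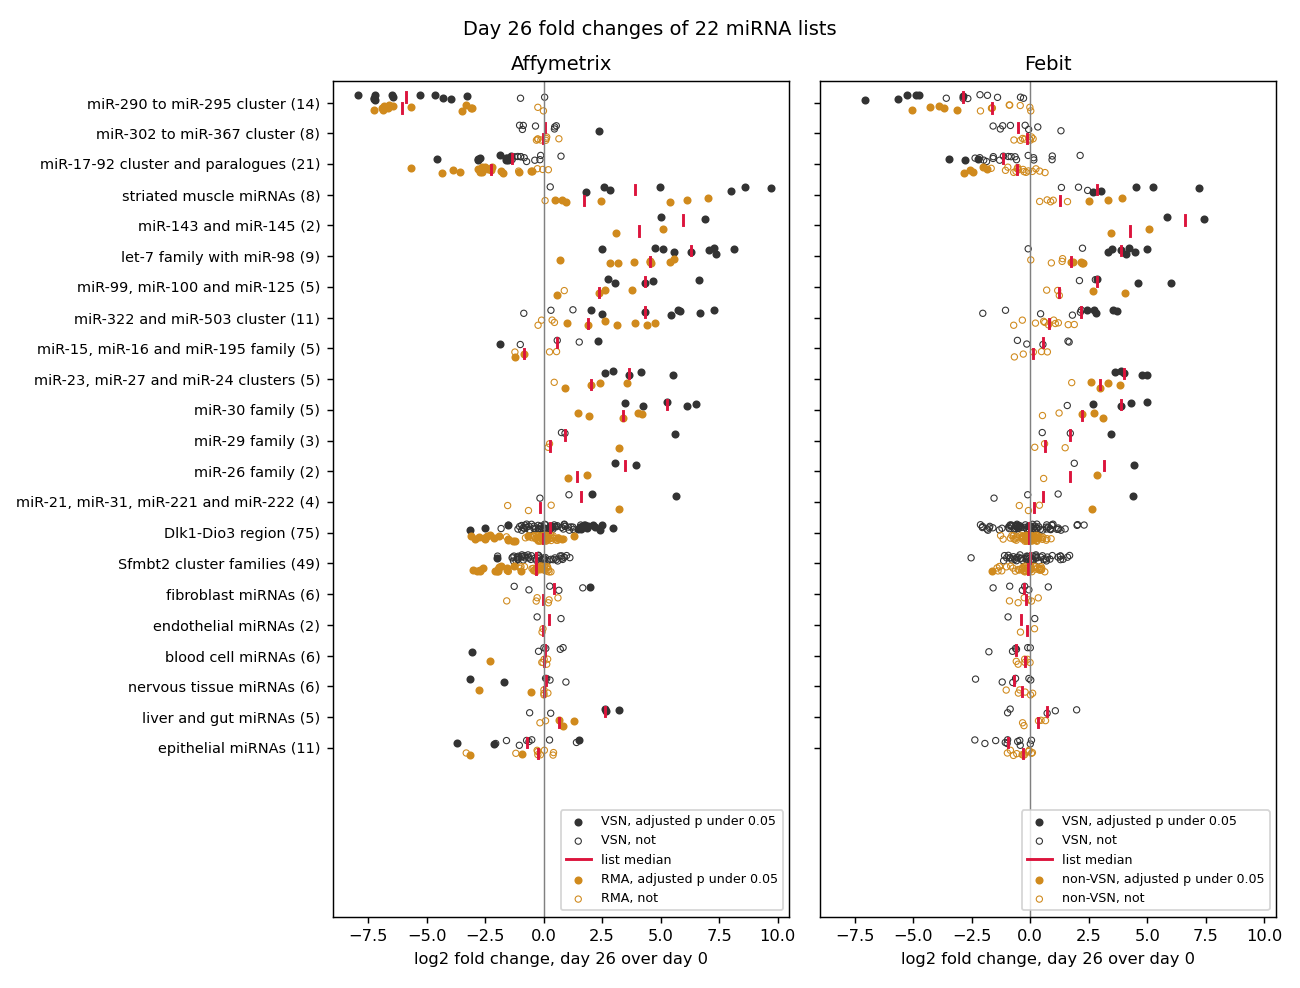
Log2 fold change of day 26 over day 0 for the members of 22 miRNA lists (number of members in parentheses) on Affymetrix and Febit, with VSN in black and the other normalization in orange, filled points for adjusted p under 0.05 and red bars at list medians. The miR-290 to miR-295 medians lie at -5.86 (VSN) and -6.05 (RMA), and the muscle list medians at 3.89 and 1.71.

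The normalization moved the direction of several groups. The median log2 fold change over all 609 miRNAs was 0.24 with VSN and -0.01 with RMA, and the gap between them grew with brightness: VSN minus RMA had a median of 0.01 among the 238 miRNAs with a mean VSN value under 2, and of 1.92 among the 61 with a mean of 7 or more. Which of the scales reflects the amounts per cell cannot be told from these values. miR-1 (9.73 with VSN and 7.03 with RMA), the let-7 family and the miR-290 to miR-295 cluster kept their direction on both scales. Of the 141 miRNAs called higher with VSN, 95 were called higher with RMA and 6 had a negative RMA fold change. Of the 50 called lower with VSN, 47 were called lower with RMA. Among miRNAs called with both, a single miRNA changed sign, miR-191, named for that reason, with 1.56 with VSN and -0.64 with RMA. Among the lists, the median of the miR-15, miR-16 and miR-195 family was 0.58 with VSN and -0.83 with RMA, and that of miR-21, miR-31, miR-221 and miR-222 was 1.57 and -0.17.

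**Figure D3:**
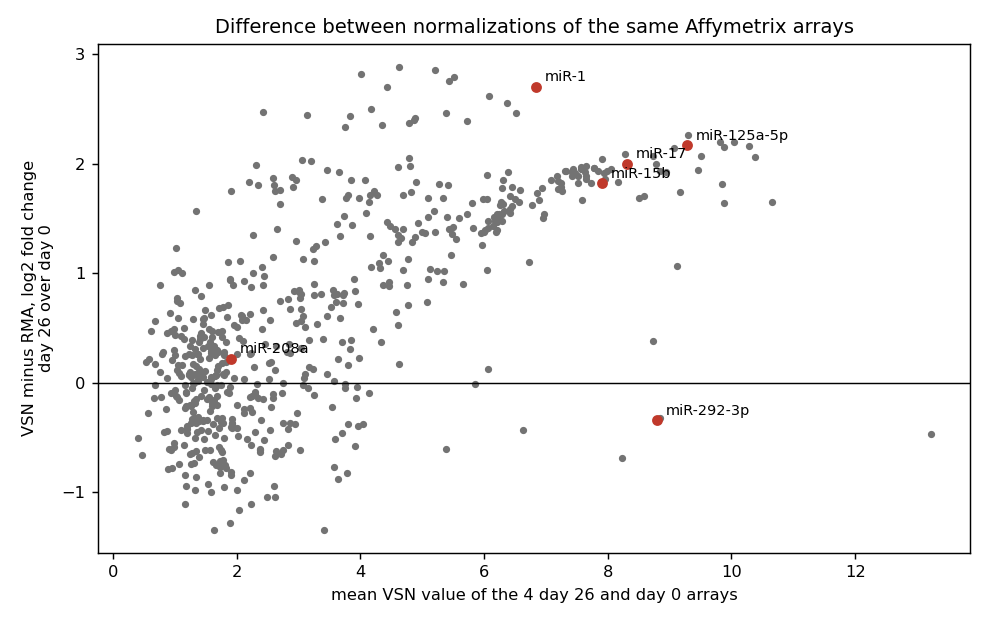
Each point is a miRNA of the Affymetrix array. The x axis is its mean VSN value over the 4 day 26 and day 0 arrays, and the y axis its day 26 log2 fold change with VSN minus that with RMA. The median difference is 0.01 for mean values under 2 and 1.92 for mean values of 7 or more, with miR-292-3p among the bright exceptions near 0.

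The imprinted Dlk1-Dio3 region of chromosome 12, a large miRNA cluster linked to pluripotency, had different calls on the 2 scales. Of its 75 measured miRNAs, Affymetrix VSN called 14 higher and 3 lower (against 23.2% higher and 8.21% lower over all miRNAs), and RMA called 3 higher and 14 lower (against 15.6% and 16.4%). Its median log2 fold change was 0.28 with VSN and -0.05 with RMA, against 0.24 and -0.01 over all miRNAs, and no member was called on Febit with or without VSN. The members of largest change kept their sign on Affymetrix: miR-411 was at 5.82 and 5.11 at day 26 against 2.11 and 2.86 at day 0 (2.97 ± 0.50 with VSN and 1.28 with RMA), and miR-485* at 2.23 and 2.73 against 4.89 and 6.32 (-3.13 ± 0.56 with VSN and -2.75 with RMA). miR-673-5p was lower on both scales (-2.50 ± 0.59 with VSN and -2.12 with RMA). miR-539 (2.40 ± 0.51 with VSN and 0.77 with RMA) was called higher on both, and miR-381 (2.20 ± 0.55), miR-299* (2.11 ± 0.61) and miR-369-5p (1.88 ± 0.51) with VSN only. miR-379 was likewise called higher with VSN only (2.48 ± 0.44, RMA 0.66 with adjusted p = 0.084). The Sfmbt2 cluster families, a repeat-rich group expressed in ES cells and placenta, had 1 of 49 miRNAs called lower with VSN, miR-467c (-2.0 ± 0.60), but 15 called lower with RMA and 17 after quantile normalization.

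Markers of other cells that the cultures could hold were checked, since ES cells had been kept on fibroblasts and differentiated cultures can retain other lineages. The fibroblast list had a mean Affymetrix VSN value of 4.02 and 3.12 on the day 26 arrays, against 3.71 and 2.55 on the day 0 arrays, with 1 of 6 members called, miR-199b (1.96 ± 0.57). Neither endothelial miRNA was called on either platform. Of the 6 blood cell miRNAs miR-150 was called lower (-3.07 ± 0.62), and of the 6 nervous tissue miRNAs miR-124 (-3.15 ± 0.58) and its star strand (-1.69 ± 0.43) were called lower. The liver and gut list had a higher mean on Affymetrix, 3.28 and 3.02 at day 26 against 1.69 and 1.35 at day 0. Of its 5 members the 3 called were miR-194 (5.53 and 4.99 at day 26 against 2.38 and 1.74 at day 0, 3.20 ± 0.47), miR-122 (2.66 ± 0.47) and miR-192 (2.60 ± 0.51), and none was called on Febit. Among 11 epithelial miRNAs, miR-205 was lower (1.88 and 2.24 at day 26 against 5.59 and 5.95 at day 0, -3.71 ± 0.43), miR-200b* lower (-2.13 ± 0.52) and miR-141* higher (1.52 ± 0.43). The shares called over all miRNAs were 23.2% higher and 8.21% lower for Affymetrix VSN. For Febit VSN they were 6.06% and 1.55%, and there none of the members of these 6 lists was called. With few members a list, these shares leave little to read from a count of 0. Their part in the other results was not tested.

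The calls shared by the platforms all had 1 sign. Of the 608 miRNAs on both arrays, 50 were called on both VSN data sets, 41 higher (6.74%) and 9 lower (1.48%). A further 141 were called on Affymetrix only and 2 on Febit only, miR-208a and miR-542-3p, the second of them named after its values were seen. All 52 common miRNAs called on Febit had the same sign on Affymetrix, and 151 of the 191 called on Affymetrix (79.1%) had the same sign on Febit. In all 4 data sets 29 miRNAs were called with 1 sign, 22 higher (3.62%) and 7 lower (1.15%). For each of the 29 the day 26 and day 0 arrays did not overlap in any data set. A call in all 4 favours this, so it is not separate support. The 7 lower were miR-290-5p, miR-291a-5p, miR-292-5p, miR-292-3p, miR-293, miR-92a and miR-106a. The 10 of largest measured increase on Affymetrix among the 22 were miR-1, miR-133a, let-7f, let-7a, miR-143, let-7d, miR-30d, miR-21, let-7e and miR-378. Their order is limited by the background, since ES cell values of miR-1, miR-133a and miR-21 lay near or under the array medians. The same RNA was hybridized on both platforms, so this is a repeat of the measurement and not of the culture.

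**Figure D4:**
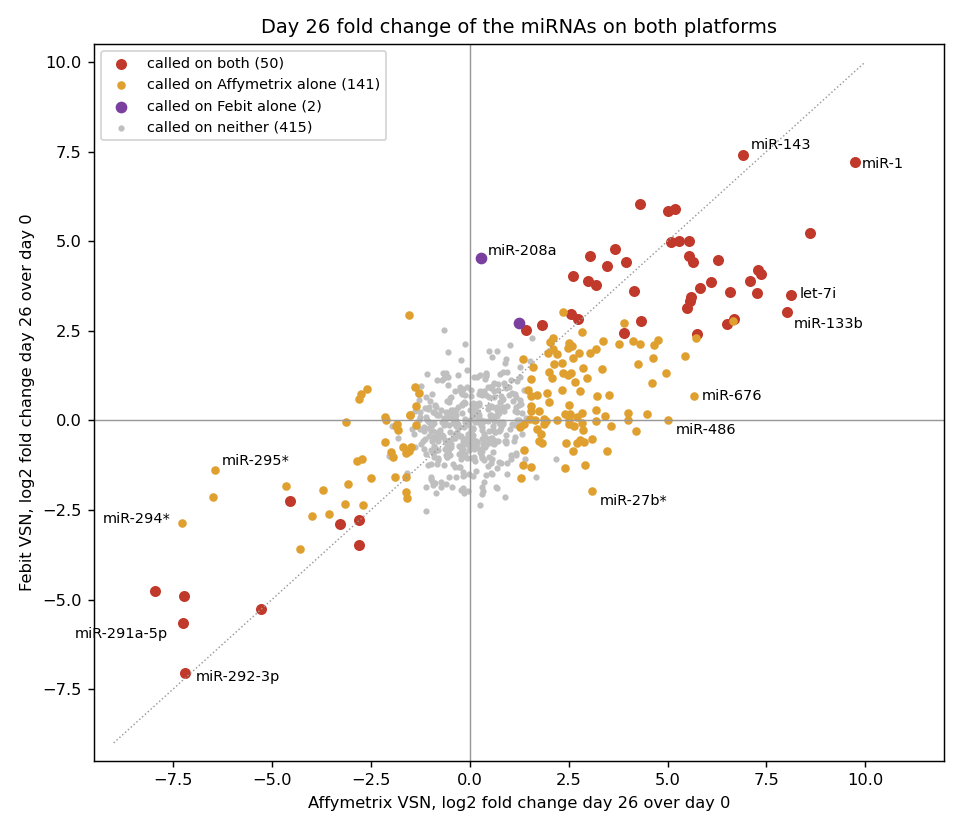
Day 26 log2 fold change of 608 miRNAs on Affymetrix VSN (x axis) and Febit VSN (y axis), coloured by where adjusted p was under 0.05, with the dotted line where both are equal. The 50 miRNAs called on both lie in the same-sign quadrants, and miR-208a (0.28 on Affymetrix and 4.52 on Febit) stands above the line while miR-676 and miR-486 lie near 0 on Febit.

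A test of the difference itself, Affymetrix minus Febit within each RNA, called 40 of 608 miRNAs (6.58%), 32 with a positive and 8 with a negative difference. In 37 of the 40 the Affymetrix fold change was the larger in size, and 16 had opposite signs on the platforms. The scales of the platforms differ, and no miRNA was called after each platform's fold changes were divided by their SD, nor without day 26 a, while 11 were called without day 26 b. The differences of largest measured size were those of miR-27b* (5.06 ± 0.95), miR-295* (-5.05 ± 0.99), miR-486 (4.99 ± 0.89), miR-676 (4.99 ± 0.85) and miR-133b (4.98 ± 0.88). miR-486, which is enriched in muscle, had Affymetrix values of 7.33 and 8.23 at day 26 against 2.76 and 2.76 at day 0, and Febit values of 6.68 and 7.45 against 7.54 and 6.55, which overlapped. miR-676 was at 8.86 and 9.41 at day 26 against 3.39 and 3.53 at day 0 on Affymetrix, and at 6.11 and 7.07 against 6.13 and 5.68 on Febit, where the groups differed by less than their spread. At chrX:7237683-7248497, picked after its values were seen, lie 5 hairpins with 9 measured miRNAs. Of these Affymetrix VSN called 6 higher and 1 lower (median 2.64), against 23.2% and 8.21% over all miRNAs, and Febit none (median -0.31). miR-500 of this cluster was at 6.66 and 6.75 at day 26 against 2.67 and 2.33 at day 0 on Affymetrix (4.20 ± 0.44) and had a Febit log2 fold change of -0.31. miR-501-3p from the same cluster was at 5.54 and 4.95 at day 26 against 2.04 and 2.65 at day 0 on Affymetrix (2.90 ± 0.47), with -0.61 ± 0.62 on Febit.

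A total of 95 miRNAs were called with 1 sign with VSN and with RMA on Affymetrix but not on Febit with either normalization. Of these 58 were higher and 37 lower. miR-191, whose signs differed, was not counted among them. The 5 of largest measured change were miR-294*, miR-100, miR-291b-5p, miR-295* and miR-181a, the last at 7.17 and 8.29 at day 26 against 2.73 and 1.31 at day 0 (5.71 ± 0.60). Near or under the array medians lay the day 26 values of miR-294* and miR-295* and the day 0 values of miR-100 and miR-181a. The background therefore limits this order. The reverse, a call with and without VSN on Febit but with neither VSN nor RMA on Affymetrix, was found for miR-208a only. Several miRNAs lower on Affymetrix and on no list were named after their values were seen. miR-182, from the miR-183 cluster at chr6:30165918-30169737 that is known from sensory cells, was at 5.36 and 6.26 in day 26 cells, against 9.17 and 9.56 in ES cells (-3.56 ± 0.91, adjusted p = 0.0092), and miR-183 at 3.53 and 4.94 against 6.78 and 7.39 (-2.85 ± 0.89). On Febit their log2 fold changes were -2.62 ± 0.91 and -1.14 ± 0.77, neither called. miR-705 and miR-672 had opposite signs on the platforms: miR-705 was at 5.47 and 6.54 at day 26 against 7.27 and 7.80 at day 0 on Affymetrix (-1.53 ± 0.53), and at 11.16 and 10.69 against 6.03 and 9.93 on Febit (2.95 ± 1.08, adjusted p = 0.16), and miR-672 had log2 fold changes of -2.79 ± 0.46 on Affymetrix and 0.60 ± 0.80 on Febit. Of the 102 miRNAs carried by the Febit array alone, 2 were called, both lower: miR-2135 at 6.65 and 7.65 in day 26 cells, against 10.34 and 10.93 in ES cells (-3.49 ± 0.75, adjusted p = 0.017), and miR-2143 at 7.27 and 7.89 against 10.35 and 10.89 (-3.04 ± 0.77, adjusted p = 0.044).

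Both arms of a hairpin were measured in 176 pairs on the Affymetrix array. In 29 pairs both arms were called with VSN, 28 with 1 sign and 1 with opposite signs. The exception was miR-138, whose guide rose by 2.32 ± 0.46 while miR-138* was called lower (-2.14, adjusted p = 0.020). With RMA the guide was not called (0.92) and miR-138* was (-0.86), and on Febit VSN the log2 fold changes were 0.85 and 0.09. With RMA 28 pairs were called with 1 sign and 3 with opposite signs, those of let-7d, miR-425 and miR-574. In 56 pairs only 1 arm was called with VSN. miR-27b and miR-27b* both rose on Affymetrix (5.53 ± 0.48 and 3.10 ± 0.52), whereas on Febit miR-27b rose by 5.00 ± 0.72 and miR-27b* had a log2 fold change of -1.96 ± 0.84 (adjusted p = 0.24).

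Day 26 was also set against the other cardiomyocyte days. Against day 12, 20 of 609 miRNAs (3.28%) were called on Affymetrix VSN, 19 higher and 1 lower, and 55 of 710 (7.75%) on Febit VSN, 52 higher and 3 lower. Both platforms called 6, all higher at day 26: let-7a, let-7b, miR-100, miR-21, miR-29a and miR-31. RMA called 39 against day 12, 19 higher and 20 lower, among them 5 of these 6, without miR-31. Febit without VSN called 0, with 25 at an unadjusted p under 0.05, but 7 with the arrays titled day 12 a and day 19 b exchanged (let-7a and miR-21 of the 6), and raw Febit intensities gave 14 (5 of the 6, without let-7b). All 6 had a positive difference in each of these. Leaving out any day 26 or day 12 array left 0 Febit VSN calls (121 to 155 at an unadjusted p under 0.05) and 12 to 16 Affymetrix VSN calls, of which let-7a and let-7b were called each time. The let-7 family led, with 8 of 9 members called on Affymetrix (median log2 fold change 3.44 against -0.03 over all miRNAs) and 3 on Febit. let-7b was at 6.22 and 3.86 on day 0, 3.75 and 4.89 on day 12, 8.12 and 8.31 on day 19 and 9.73 and 9.86 on day 26 on Affymetrix. Its day 12 and ES cell values overlapped. miR-1 was at 2.84 and 1.10 on day 0, 10.25 and 9.60 on day 12, 10.83 and 9.99 on day 19 and 11.52 and 11.88 on day 26, so its day 26 and day 12 arrays did not overlap, and its change since day 12 (1.77 ± 0.59) missed the threshold with adjusted p = 0.12. On Febit VSN 3 of the 8 striated muscle miRNAs were called higher than at day 12, miR-499 (3.28 ± 0.62), miR-133a* (3.27 ± 0.60) and miR-133b (2.66 ± 0.62), and none on Affymetrix. The 1 miRNA called lower at day 26 than at day 12 on Affymetrix VSN was miR-20b (-2.24 ± 0.46, adjusted p = 0.016), and the 20 called lower with RMA included miR-20b, miR-106a, miR-17 and miR-92a. miR-21 was at 1.84 and 2.28 on day 0, 5.05 and 4.35 on day 12, 5.59 and 6.04 on day 19 and 8.24 and 7.18 on day 26. Against day 19 limma called 0 miRNAs on Affymetrix VSN (0.0% of those tested, with 80 at an unadjusted p under 0.05) and 0 on Febit VSN (0.0%, with 27 at an unadjusted p under 0.05). With RMA 4 were called against day 19, and on Febit without VSN 0.

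**Figure D5:**
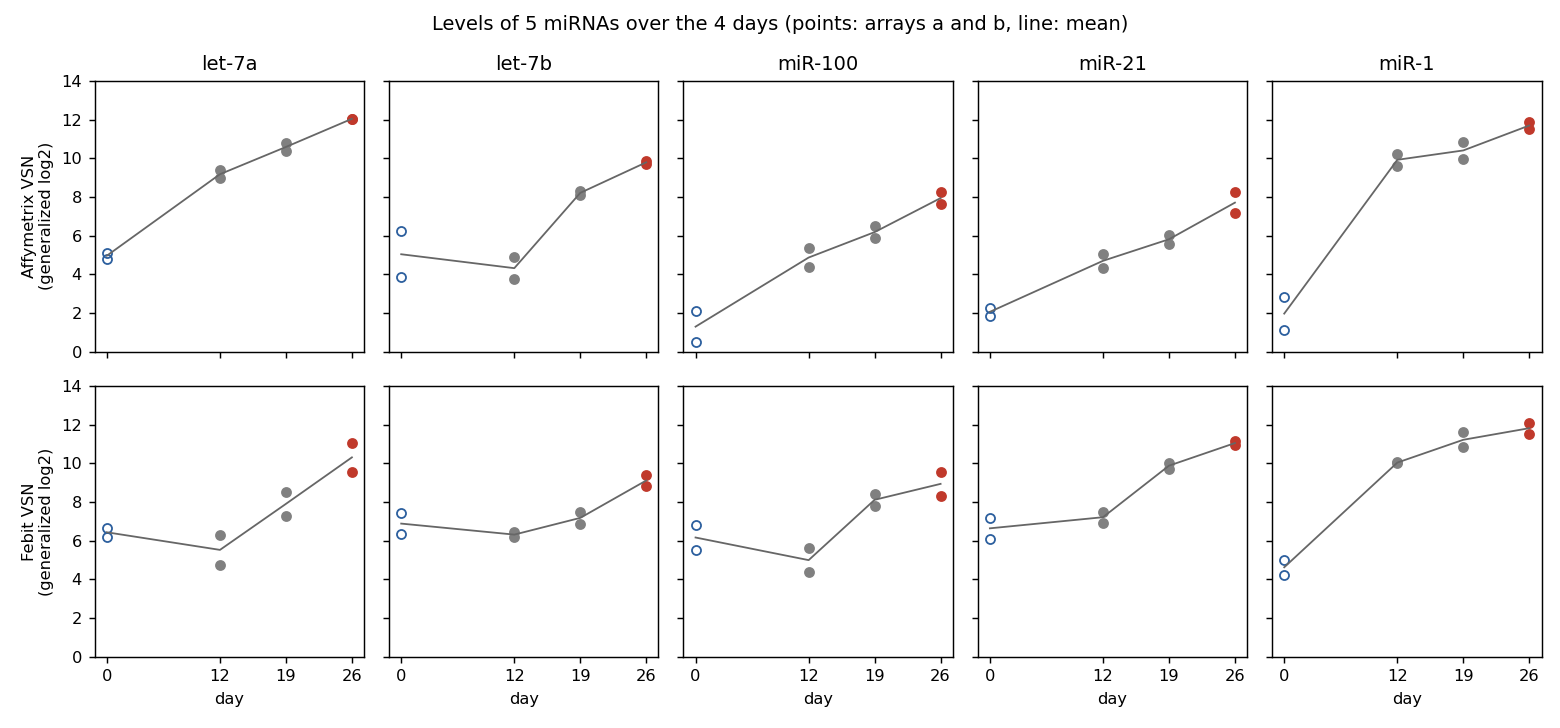
VSN values (generalized log2) of let-7a, let-7b, miR-100, miR-21 and miR-1 on days 0, 12, 19 and 26 on Affymetrix (top) and Febit (bottom), with a point per array and a line through the means of a and b. On Affymetrix miR-1 is at 10.25 and 9.60 on day 12 and at 11.52 and 11.88 on day 26, whereas let-7b is at 3.75 and 4.89 on day 12 and at 9.73 and 9.86 on day 26.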

How the data were processed

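The 4 RNA samples of day 26 and day 0, with those of day 12 and day 19, were measured on Affymetrix miRNA 1.0 arrays (biotin label) and on Febit Biochips. The authors deposited log2 values per miRNA: Affymetrix arrays normalized with RMA (affy package) and with VSN, and Febit arrays normalized with VSN or, without it, by quantiles. The authors also deposited raw Febit intensity values, 8 features a miRNA, with no normalization. Near the background the VSN scale is linear, so fold changes there are not simple ratios of signal. Replicates a and b are separate cultures as the study describes them. The p-values rest only on the spread between a and b within a day. That spread was pooled over the 4 days, and limma drew it toward a value shared by all miRNAs.

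Each data set was fitted with limma 3.58.1 (R 4.3.3), with a mean per day over its 8 arrays and 4 residual degrees of freedom. p-values were adjusted with the Benjamini-Hochberg method over all miRNAs of the array and called under 0.05. The platform difference was fitted on Affymetrix minus Febit within each RNA. The fit was tested on simulated data. The members, the lists and the rule for named miRNAs were chosen with earlier results of these data known. That rule names up to 8 called members a list of largest change, all striated muscle members, the largest changes called in all 4 data sets, outside the lists, on 1 platform alone, on the Febit array alone or differing between platforms, and miRNAs named by the study. Old miRNA names were matched to RefSeq arms by hand. The number of arrays limits the precision. The arrays without VSN titled day 12 a and day 19 b follow each other's raw Febit array. Exchanging them leaves the day 26 and day 0 values as they are but changes the variances and the day 12 comparison. The counts without VSN against day 0 were then 54 calls in place of 41, with 35 higher and 19 lower. The alternatives were the other normalization, median centring, quantile normalization, the 4 arrays of both days alone, a replicate block, fewer miRNAs, other variance settings, raw Febit intensities with normexp (offset 50), and each array left out. Those for day 12 were chosen after seeing the data.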

Additional observations from a re-analysis of the deposited data

Results flagged for a closer look

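The change since day 0 differed between day 26 and day 12, by limma's test of day 26 minus day 12, on both VSN data sets for 6 miRNAs. The Febit calls of the 6 were not made without VSN on the arrays as titled, and no Febit VSN call was left when any day 26 or day 12 array was left out. The log2 differences, day 26 minus day 12, on Affymetrix VSN were 5.48 for let-7b, 3.07 for miR-100, 3.01 for miR-21, 2.86 for let-7a, 2.60 for miR-31 and 2.15 for miR-29a. Groups of 2 arrays are too small for a test of single outlying arrays.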

How the results depend on the processing

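Of all miRNAs called on Affymetrix VSN, 6 had the opposite sign with RMA and 3 after quantile normalization. No miRNA called on Febit VSN changed sign under any setting tried. With 1 array left out, 18 named miRNAs lost their Affymetrix call in at least 1 case, miR-17 in each of the 4 and miR-302d, miR-141*, miR-497 and miR-381 in 3, and 36 lost their Febit call. The count of calls on Affymetrix VSN (191) lay between 174 and 201 under the other settings and between 142 and 163 with each array left out. On Febit VSN (54) it was 31 with the day 0 and day 26 arrays only, and 10 to 78 with each array left out. The count called on both platforms with the same sign (50) was 33 with RMA and non-VSN values, 33 after quantile normalization, 29 with the day 0 and day 26 arrays only, and 10 to 52 with each array left out. The count of differences between platforms (40) was 90.0 for RMA minus non-VSN, 23 with the day 0 and day 26 samples only, 0 after scaling each platform to SD 1, and 0 to 52 with each sample left out. Against day 12 the count on Affymetrix VSN (20) was 39 with RMA and 12 to 16 with each array left out. On Febit VSN (55) it was 0 without VSN (25 at an unadjusted p under 0.05), 7 with day 12 a and day 19 b exchanged, 14 from raw intensities and 0 with each array left out. On both platforms (6) it was 0 with RMA and non-VSN values, and against Affymetrix VSN 4 with the exchange and 5 from raw intensities. It was 0 with each array left out. The cause of these shifts was not tested, beyond the fewer arrays of the reduced fits. The share of higher calls on Febit was 65.9% after quantile normalization and 64.7% from raw intensities. The letters a and b are not said to pair cultures of different days. The correlation of a minus b between day 26 and day 0 was 0 on Affymetrix and 0.04 on Febit. Between day 12 and day 19 it was 0.3 on Affymetrix. Such correlations across miRNAs cannot show whether cultures were paired. A replicate block gave 200 calls on Affymetrix, 47 on Febit, 43 on both and 53 differences. Several Febit log2 fold changes that were not called changed sign: miR-93* 0.09 and miR-497 0.02 after median centring, miR-485* 0.08 (non-VSN, also with day 12 a and day 19 b exchanged), 0.13 (centring), 0.24 (quantile) and 0.14 (raw), miR-369-5p 0.04 (non-VSN, also exchanged), 0.08 (centring), 0.12 (quantile) and 0.06 (raw), miR-411 -0.20 (non-VSN, also exchanged) and -0.16 (raw), and miR-486 -0.14 (non-VSN, also exchanged), -0.28 (quantile) and -0.21 (raw). With each array left out, uncalled values that changed sign ranged, on Affymetrix, from -0.12 to 0.68 for miR-208a and from -0.60 to 0.17 for miR-715. On Febit they ranged from -0.42 to 3.03 for miR-302d, -0.27 to 0.09 for miR-93*, -0.32 to 0.01 for miR-497, -0.37 to 0.28 for miR-485*, -2.74 to 0.10 for miR-539, -0.67 to 0.71 for miR-381, -0.52 to 0.32 for miR-369-5p, -1.80 to 0.04 for miR-467c, -0.16 to 1.71 for miR-199b, -0.75 to 0.75 for miR-200b*, -0.17 to 0.27 for miR-141*, -0.15 to 1.85 for miR-138 and -0.47 to 0.52 for miR-486. Dim miRNAs are limited by the background.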
